A study of Mus musculus and Homo sapiens with 15 samples.

Results

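Neurons release transmitter when a synaptic vesicle fuses with the presynaptic membrane, and the 8 genes described here encode proteins of that step. They were chosen by name, as Snap25, Syt1, Vamp1, Vamp2, Rims1, Bsn, Unc13a and Nsf, and their data were the edit clusters labelled with these names and the edited sites inside those clusters on the same strand. They were 8 of 18103 genes named in a cluster label of the brain libraries, and held 4504 of 1067450 merged clusters, a merged cluster being all clusters of the 9 libraries that overlap or touch on a strand.

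The measurements came from INSCRIBE, in which the cytidine deaminase APOBEC1, fused to a nanobody, is brought by a primary antibody to an RNA-binding protein in fixed tissue, so that cytosines in the RNA nearby are changed to uracils and read as C-to-T changes by sequencing. RBFOX2 is a splicing regulator that binds the RNA sequence UGCAUG. The groups compared were PFA-fixed whole brain sections from female wildtype C57BL/6J mice of 2 months, with 3 libraries in each group. RBFOX2-INSCRIBE received the RBFOX2 antibody and the editing enzyme, enzyme-only the enzyme without that antibody, and buffer-only neither. Each library was made from a single coronal slice, and the sources used here do not say which animal gave which slice. The study used at most 2 mice for its slices and may have used 1, so replicates shared animals, and p-values measure the spread between slices.

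In the release cycle, Vamp1 and Vamp2 on the vesicle and Snap25 on the plasma membrane are SNAREs, which zip together with syntaxin to drive fusion. Syt1 is the calcium sensor that triggers fusion, Unc13a primes docked vesicles, and Rims1 and Bsn are scaffolds of the active zone, the patch of membrane where vesicles dock. Nsf is the ATPase that takes spent SNARE complexes apart. Snap25 transcripts carry 1 of 2 tandem alternative exons, a well-known splicing choice that changes during brain development.

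The clearest rise with the RBFOX2 antibody among these genes lay in an intron of Snap25, directly after that exon pair. Below are the confident edit cluster there with the most edited reads, here the most edited stretch, and each confident edit cluster with UGCAUG. Confident edit clusters are here the clusters of the deposited lists of that name, found in all 3 libraries of a group, before buffer-only clusters were taken out of them. Sequences are given 5′ to 3′ on the gene's strand, read from GRCm38/mm10, with T for U. In the first 7 the capitals mark UGCAUG, and the Rims1 3′ UTR cluster is shown only around its motif. In the eighth the capitals mark the C positions edited in at least 2 RBFOX2-INSCRIBE libraries, 5 of its 8 edited positions, and in the last the capital marks an edited C that both enzyme-treated groups shared.
Snap25 intron, chr2:136770805-136770879, plus strand: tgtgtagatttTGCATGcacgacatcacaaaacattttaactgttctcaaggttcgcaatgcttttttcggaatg
Snap25 intron, chr2:136773235-136773279, plus strand: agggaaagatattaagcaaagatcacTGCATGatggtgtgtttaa
Syt1 intron, chr10:108672099-108672143, minus strand: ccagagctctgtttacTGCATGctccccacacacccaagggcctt
Syt1 intron, chr10:108684294-108684338, minus strand: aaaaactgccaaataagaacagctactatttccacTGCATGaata
Syt1 intron, chr10:108813654-108813728, minus strand: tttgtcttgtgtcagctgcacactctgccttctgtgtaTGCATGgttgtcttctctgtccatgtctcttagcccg
Rims1 intron, chr1:22432327-22432386, minus strand: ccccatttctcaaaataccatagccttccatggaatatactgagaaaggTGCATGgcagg
Rims1 3′ UTR, chr1:22286911-22286940, minus strand: gctgttcaaagcTGCATGcattttgtataa
Snap25 intron, most edited stretch, chr2:136771975-136772079, plus strand: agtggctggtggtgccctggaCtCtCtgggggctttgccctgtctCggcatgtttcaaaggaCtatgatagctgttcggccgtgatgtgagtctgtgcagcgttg
Syt1 3′ UTR site, chr10:108497918-108497947, minus strand: atgccctagaaagatCctagttgcctttgt

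The libraries held 193252 to 339567 edited reads at sites that passed the authors' filter, a confidence score above 0.5 and an edit fraction below 0.8, and 139884 to 229430 clusters. The number of sequenced reads was not given in the files, and the data were shallow at each site, since 88.4% to 91.3% of filtered sites rested on 1 edited read. RBFOX2-INSCRIBE libraries had the most edited reads, so levels are given in CPM, edited reads per 1000000 edited reads in the genes tested, scaled with edgeR's TMM factors. Edited reads depend on the amount of an RNA as well as on editing, and in whole sections fewer cells of a type and less RNA per cell cannot be told apart.

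The share of all edited reads that lay in the 8 genes together differed between groups by less than the spread between slices. The share was 0.413% ± 0.019 (SD, n = 3) in RBFOX2-INSCRIBE, 0.405% ± 0.009 in enzyme-only and 0.410% ± 0.021 in buffer-only, with two-sided exact permutation p = 0.7 and 0.8 for the neighbouring groups, where 3 libraries against 3 allow no p under 0.1. Edited reads were 3.82% ± 0.41, 4.05% ± 0.30 and 3.95% ± 0.31 of the reads covering the filtered sites (exact permutation p = 0.7 and 0.5). That percentage counts only sites with an edit, of which 90.9% had 1 edited read, at a median cover of 22 over all of them. It thus mostly follows the cover and cannot show whether more positions were edited in a group. Of all edited reads in the 8 genes, 95.8% lay in introns, 2.48% in 3′ UTRs and 1.27% in coding exons. Introns held all of those in Nsf, 98.7% in Snap25 and 98.7% in Syt1, 95.3% in Rims1, 83.0% in Bsn and 81.1% in Unc13a, against 58.8% in Vamp2 and 33.3% in Vamp1. Most positions did not recur, as 8350 distinct filtered sites were listed in 1 library, 297 in 2, 21 in 3, 2 in 4, 1 in 6 and 1 in all 9.

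Of the plasma membrane and vesicle SNAREs, only Snap25 (ENSMUSG00000027273.13, chr2:136713453-136782428, plus strand) had enough edited reads for the fit. Its edited reads were 179, 154 and 163 in RBFOX2-INSCRIBE, 108, 108 and 110 in enzyme-only and 81, 66 and 69 in buffer-only. These levels were 587 ± 53.8, 432 ± 22.6 and 386 ± 26.8 CPM, and every RBFOX2-INSCRIBE library was above every enzyme-only library. Across all genes tested, 8.60% had their 3 RBFOX2-INSCRIBE libraries above the 3 enzyme-only libraries, and 7.89% their 3 enzyme-only above the 3 buffer-only libraries, which for Snap25 overlapped.

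The gene-level difference of Snap25 did not pass the test, at log2 0.45 ± 0.14 (SE) with an adjusted p of 0.108 (edgeR quasi-likelihood test, Benjamini-Hochberg over 6631 genes). It passed when every listed site was counted, with no filter on confidence (log2 0.61, adjusted p = 0.00204), and with an offset for the covering reads per site the log2 difference was 0.20 with an adjusted p of 0.82. Summed levels (CPM) of 8 general neuron markers were 1989 to 2277 with the RBFOX2 antibody, 1495 to 1806 without it and 1549 to 1897 in the buffer-only libraries. None of the 5 tested was called. Those of 6 excitatory neuron markers were 844 to 928 and 888 to 959 in the first groups, and the means of 4 hippocampal neuron markers were 887 and 890. The part of these in the Snap25 difference was not tested.

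Vamp1 (ENSMUSG00000030337.16, chr6:125215551-125245964, plus strand) had 7, 11 and 7 edited reads in the RBFOX2-INSCRIBE libraries, 12, 4 and 1 in enzyme-only and 6, 3 and 3 in buffer-only, and its groups overlapped. Vamp2 (ENSMUSG00000020894.16, chr11:69088490-69092384, plus strand) had 3, 4 and 0 in RBFOX2-INSCRIBE, 6, 7 and 4 in enzyme-only and 2, 4 and 4 in buffer-only. With 34 reads over all libraries Vamp2, like Vamp1, fell short of the filter on low counts. At 3.90 kb Vamp2 is by far the shortest of the 8 genes.

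For the calcium sensor Syt1 (ENSMUSG00000035864.14, chr10:108497650-109010982, minus strand), with the most edited reads of the 8 genes, edited reads were 637, 694 and 644 in RBFOX2-INSCRIBE, 577, 573 and 608 in enzyme-only and 563, 391 and 413 in buffer-only. Its levels were 2340 ± 197, 2329 ± 174 and 2419 ± 132 CPM, which overlapped throughout. The log2 difference was 0.01 ± 0.10 for RBFOX2-INSCRIBE against enzyme-only (adjusted p = 0.985), its sign turning with several settings, and -0.06 for enzyme-only against buffer-only (adjusted p = 0.901), which turned to 0.06 with the offset for covering reads.

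The active zone scaffolds and the priming factor did not pass either. Rims1 (ENSMUSG00000041670.16, chr1:22286251-22805994, minus strand) had 294, 366 and 308 edited reads in the RBFOX2-INSCRIBE libraries, 234, 285 and 226 in enzyme-only and 273, 191 and 188 in buffer-only, a log2 difference of 0.22 ± 0.12 between the first groups (adjusted p = 0.453). Enzyme-only against buffer-only gave log2 -0.23 ± 0.12 for Rims1 (adjusted p = 0.517), at 920.6 to 1090 and 1108 to 1217 CPM. Bsn (ENSMUSG00000032589.14, chr9:108096022-108190384, minus strand) had 61, 51 and 49, then 45, 52 and 56, then 49, 36 and 47, and these overlapped at log2 -0.09 ± 0.20 (adjusted p = 0.916), the sign turning with the offset for covering reads. Unc13a (ENSMUSG00000034799.16, chr8:71624417-71671757, minus strand) had 78, 78 and 47, then 67, 78 and 62, then 61, 40 and 44 in the same order, overlapping at log2 -0.19 ± 0.18 (adjusted p = 0.749), and this sign turned with a cover of at least 20 reads per site.

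Nsf (ENSMUSG00000034187.18, chr11:103821782-103954056, minus strand) showed no separation by the RBFOX2 antibody. Its edited reads were 76, 42 and 58 in RBFOX2-INSCRIBE, 48, 62 and 43 in enzyme-only and 69, 42 and 49 in buffer-only. RBFOX2-INSCRIBE against enzyme-only gave log2 0.04 ± 0.20 (adjusted p = 0.966), with a sign that the offset for covering reads turned. Enzyme-only against buffer-only gave log2 -0.49 ± 0.21 (adjusted p = 0.340), at 178.6 to 237.2 and 243.6 to 307.5 CPM.

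In all, 6 of the 8 genes were tested and none was called in either comparison, against 1.03% of all genes for RBFOX2-INSCRIBE over enzyme-only (68 of 6631, 65 of them higher) and 0.573% for enzyme-only over buffer-only (38 of 6631). At an unadjusted p under 0.05, 1 of the 6 stood in each comparison, Snap25 in the first and Nsf in the second, beside 817 and 709 of all genes, and DESeq2's Wald test called none of the 6. With every listed site counted, Snap25 was called among 1.32% of 7171 genes. Per kb of gene, the 3 RBFOX2-INSCRIBE libraries together had 7.19 edited reads in Snap25, 4.29 in Unc13a, 3.85 in Syt1, 1.86 in Rims1, 1.80 in Vamp2, 1.71 in Bsn, 1.33 in Nsf and 0.82 in Vamp1. The 3 enzyme-only libraries together had 4.73 in Snap25, 4.37 in Unc13a, 4.37 in Vamp2 and 3.43 in Syt1, and between 0.56 and 1.62 in the other genes.

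**Figure D1:**
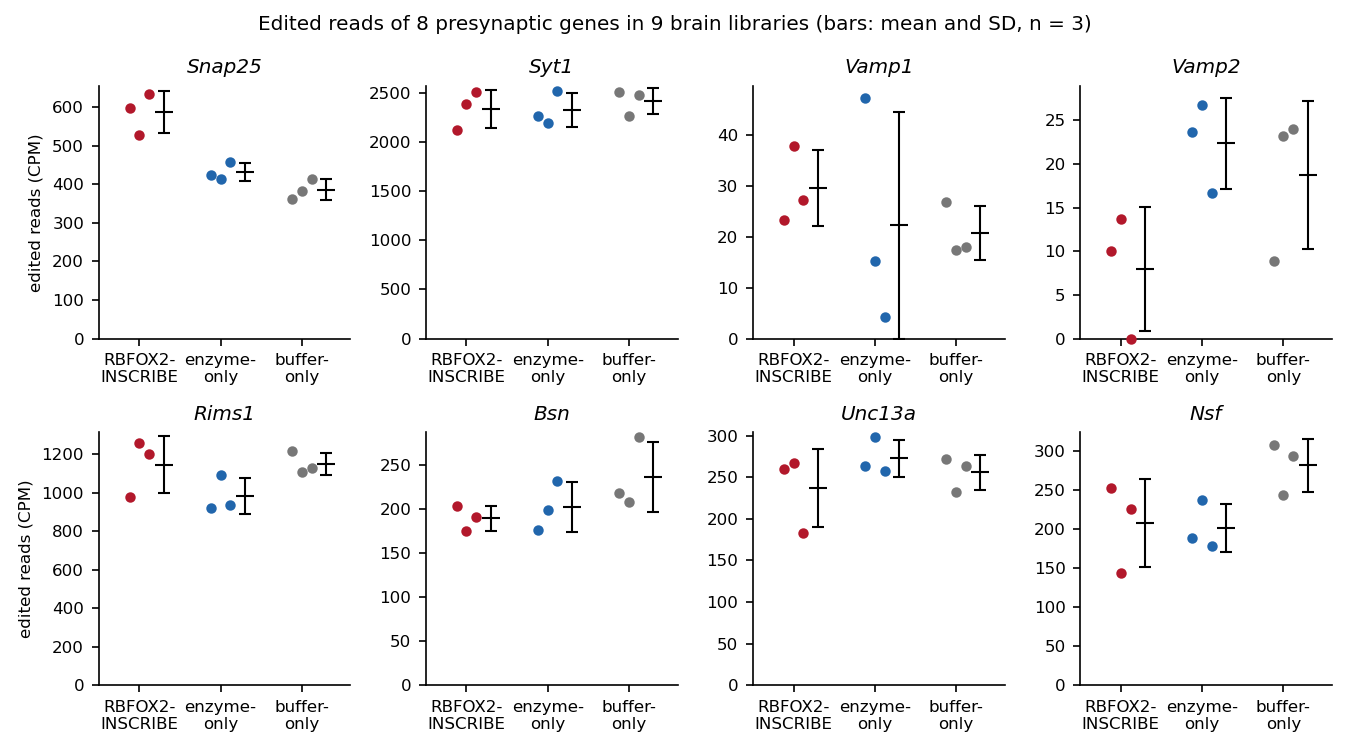
Edited reads in CPM (y axis, linear from 0, own scale per panel) of the 8 release genes, with 1 point per library and bars for the mean and SD of the 3 libraries of each group. Snap25 is the gene whose RBFOX2-INSCRIBE libraries all lie above the enzyme-only libraries, at a mean of 587 against 432, while Vamp2 rests on 34 reads in all.

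Edited reads were then counted in each exon and intron as the cluster files label them, in the files' own numbering, to see whether a change within a gene was hidden by its total. Of 173 labelled exons and introns of the 8 genes, 28 had enough reads for the fit, and 1 was called for RBFOX2-INSCRIBE against enzyme-only, where 2.07% of all 4675 labelled exons and introns were called. None was called for enzyme-only against buffer-only, where 2.05% of all were, with 3 of the 28 and 770 of all at an unadjusted p under 0.05. The median log2 difference of the 28 was -0.08, beside -0.004 over all, and 12 were above 0.

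The region called was the Snap25 intron between the alternative exon pair and the next exon, chr2:136770175-136773894, which the files number intron 12. It held 76, 55 and 74 edited reads in the RBFOX2-INSCRIBE libraries, 12, 11 and 11 in enzyme-only and 2, 10 and 3 in buffer-only. RBFOX2-INSCRIBE stood far above both other groups, with no overlap, and the controls overlapped each other. The intron rose by log2 2.32 ± 0.31 over enzyme-only (adjusted p = 1.28e-05, edgeR quasi-likelihood test), and by 2.06 with an adjusted p of 0.00122 when the covering reads per site were taken as an offset. Enzyme-only against buffer-only gave log2 0.77 ± 0.48 (adjusted p = 0.43), which became 1.82 without the second buffer-only library (adjusted p = 0.12) and 0.24 without the first (adjusted p = 0.894). The intron passed the filter on low counts on its enzyme-only reads alone.

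**Figure D2:**
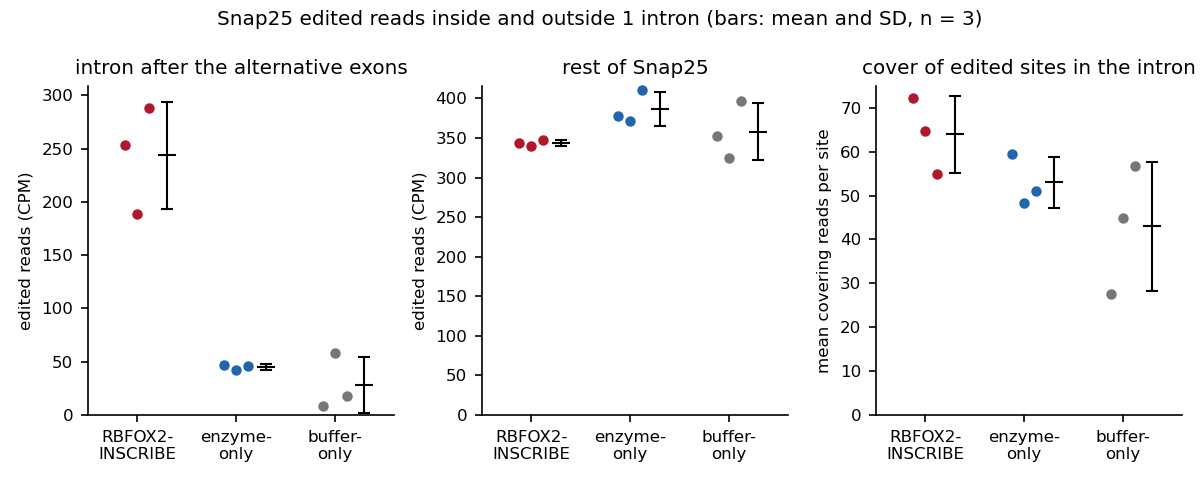
Edited reads in CPM of the Snap25 intron after the alternative exon pair, and of the remainder of the gene, and in the third panel the mean covering reads per edited site in the intron, with 1 point per library and bars for mean and SD. The intron stands at 189 to 289 in RBFOX2-INSCRIBE and 42.1 to 47.2 in enzyme-only, while the remainder of the gene is at 340 to 347 and 371 to 411.

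The intron is 3720 nt, 5.39% of the gene, and gave 41.2% ± 5.0 of the gene's edited reads in the RBFOX2-INSCRIBE libraries, 10.4% ± 0.6 in enzyme-only and 7.32% ± 6.8 in buffer-only. Its level of 244 ± 50.5 CPM in RBFOX2-INSCRIBE was 5.41-fold that of 44.99 ± 2.6 in enzyme-only (exact permutation p = 0.1, the smallest possible). The intron was picked by its rise in these same reads, so the permutation tests of it and of the rest are descriptions and add no support. Outside the intron the order turned in CPM, with 344 ± 3.4 in RBFOX2-INSCRIBE and 387 ± 21.5 in enzyme-only (exact permutation p = 0.1) and 358 ± 36.1 in buffer-only. The edited reads there overlapped, at 103, 99 and 89 in RBFOX2-INSCRIBE and 96, 97 and 99 in enzyme-only. CPM is relative to the edited reads of each library, so it does not show that the rest was edited less. The other introns of Snap25 that were tested, numbered 1 and 8, gave log2 -0.29 (adjusted p = 0.546) and 0.003 (adjusted p = 0.998).

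Cover of the edited sites in the intron differed less than their number did. The mean cover was 64.0 ± 8.7 reads in the RBFOX2-INSCRIBE libraries, 53.0 ± 5.8 in enzyme-only and 43.0 ± 14.7 in buffer-only, a 1.21-fold difference between the first groups. Edited reads were 2.76% ± 0.34, 2.23% ± 0.19 and 2.63% ± 0.94 of the covering reads, counted only at sites with an edit. RBFOX2-INSCRIBE listed 40, 34 and 43 edited positions in the intron, enzyme-only 10, 10 and 9 and buffer-only 2, 9 and 3. Edited reads per listed position were also higher, at 1.62 to 1.90 in the RBFOX2-INSCRIBE libraries, beside 1.1 to 1.22 without the antibody and at most 1.11 without the enzyme. Over its libraries RBFOX2-INSCRIBE listed 90 distinct positions, of which 22 recurred in at least 2 libraries and 5 in all 3, while enzyme-only listed 28 with 1 recurring and buffer-only 14 with none.

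Upstream of the intron lie the 2 alternative exons, chr2:136769743-136769860 and chr2:136770057-136770174, each of 118 nt with 87 identical bases and 196 bases between them. The next exon, chr2:136773895-136774020, has 126 nt. The intron holds 4 of the 33 UGCAUG in the gene, starting 642, 808, 2773 and 3087 nt from its start. Within 50 nt of these, where 9.44% of the intron's C lie, RBFOX2-INSCRIBE had 12, 14 and 19 edited reads, enzyme-only 2, 2 and 1 and buffer-only 0, 1 and 0. This was 15.8% to 25.7% of the intron's reads in the RBFOX2-INSCRIBE libraries, beside 9.09% to 18.2% in enzyme-only, and the ranges overlapped. Most RBFOX2-INSCRIBE edits in the intron lay farther than 50 nt from the motif.

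**Figure D3:**
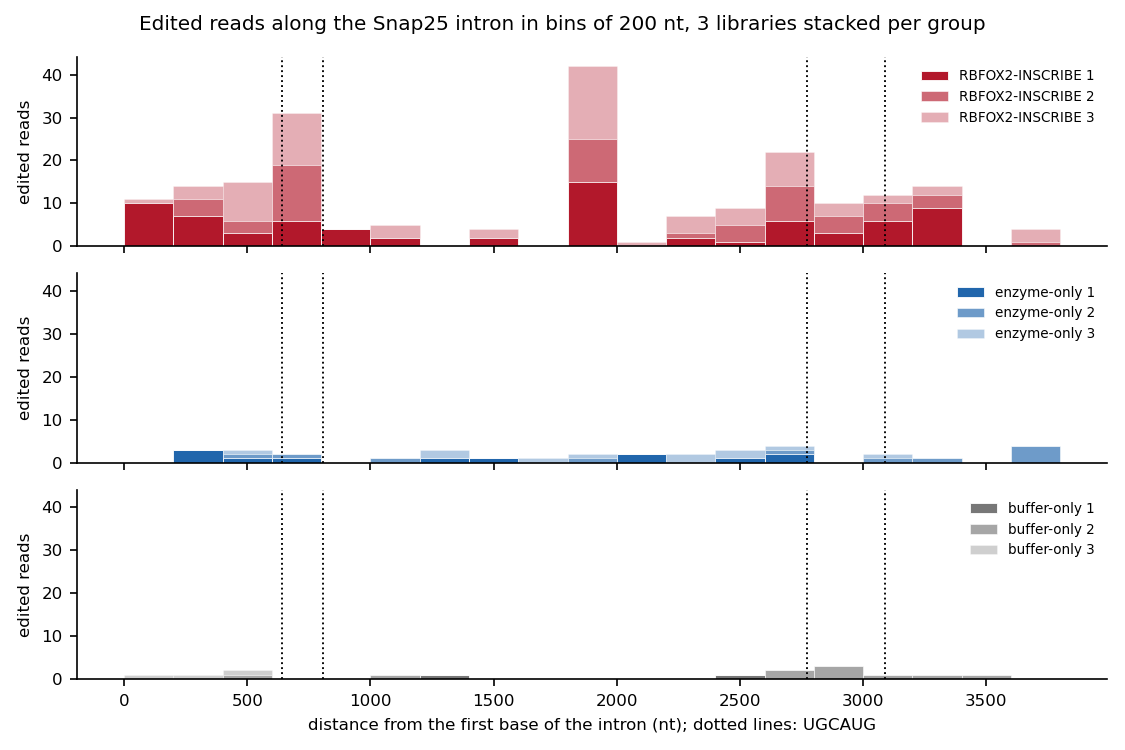
Edited reads in 200-nt bins along the Snap25 intron (x axis, distance from its start in nt), with the 3 libraries of each group stacked in shades and 1 panel per group, and dotted lines at the 4 UGCAUG. The highest bin starts at 1800 nt, with 15, 10 and 17 reads in the RBFOX2-INSCRIBE libraries and 0, 1 and 1 in enzyme-only.

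The bin with the most reads, from 1800 nt, holds no UGCAUG, although the stretch printed above from it contains GCAUG. The bin from 600 nt, which holds the first motif, had 6, 13 and 12 reads in the RBFOX2-INSCRIBE libraries, 1, 1 and 0 in enzyme-only and none in buffer-only. Both overlapped merged clusters that were called when clusters with at least 20 edited reads over all libraries were fitted. In that fit 11 merged clusters of the release genes were tested, 5 in Snap25 and 6 in Syt1, and 2 were called for RBFOX2-INSCRIBE against enzyme-only, where 4.48% of all 1363 were, with 6 of the 11 and 245 of all at an unadjusted p under 0.05. None was called for enzyme-only against buffer-only, where 0.293% of all were, with 1 of the 11 and 152 of all at an unadjusted p under 0.05. The minimum of 20 counts the RBFOX2-INSCRIBE reads too, so clusters high in that group enter more easily. For RBFOX2-INSCRIBE over enzyme-only the median log2 difference of the 11 was 2.22, beside 0.32 over all, and the counts of the 11 are a description. No merged cluster of the release genes had enough reads for the stricter filter of the gene fit, which left 149 in all.

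The called cluster chr2:136770610-136770984 had 9, 16 and 21 edited reads in the RBFOX2-INSCRIBE libraries, 2, 2 and 1 in enzyme-only and 0, 1 and 1 in buffer-only. The other, chr2:136771975-136772154, had 15, 10 and 17, then 0, 1 and 1, then none. Both reached the minimum of 20 only through the RBFOX2-INSCRIBE reads, since the 6 control libraries held 7 and 2 in all, so being called is here a description of these clusters. In both, each RBFOX2-INSCRIBE library had several times the reads of every control library.

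The most edited merged cluster of every other gene was small or rested on a few libraries. That of Syt1, chr10:108497906-108497950 in the 3′ UTR, had 19 reads in the third RBFOX2-INSCRIBE library and 22 in the first enzyme-only library. That of Bsn, chr9:108097958-108098047 in the 3′ UTR, had 3 and 6 in the first and second enzyme-only libraries alone, and that of Vamp1, chr6:125218650-125218694 in a coding exon, had 5 in the first enzyme-only library alone. The intronic clusters of Unc13a at chr8:71642569-71642748 (7, 3 and 0, then 0, 1 and 4, then 0, 1 and 1), Nsf at chr11:103860289-103860393 (1, 1 and 0, then 2, 0 and 0, then 0, 1 and 2) and Rims1 at chr1:22771851-22772165 (3, 1 and 3, then 2, 3 and 0, then 1, 1 and 4) were spread over the groups. The cluster of Vamp2 at chr11:69088806-69088910 had 1, 2 and 0, then none in enzyme-only, then 1, 2 and 2.

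**Figure D4:**
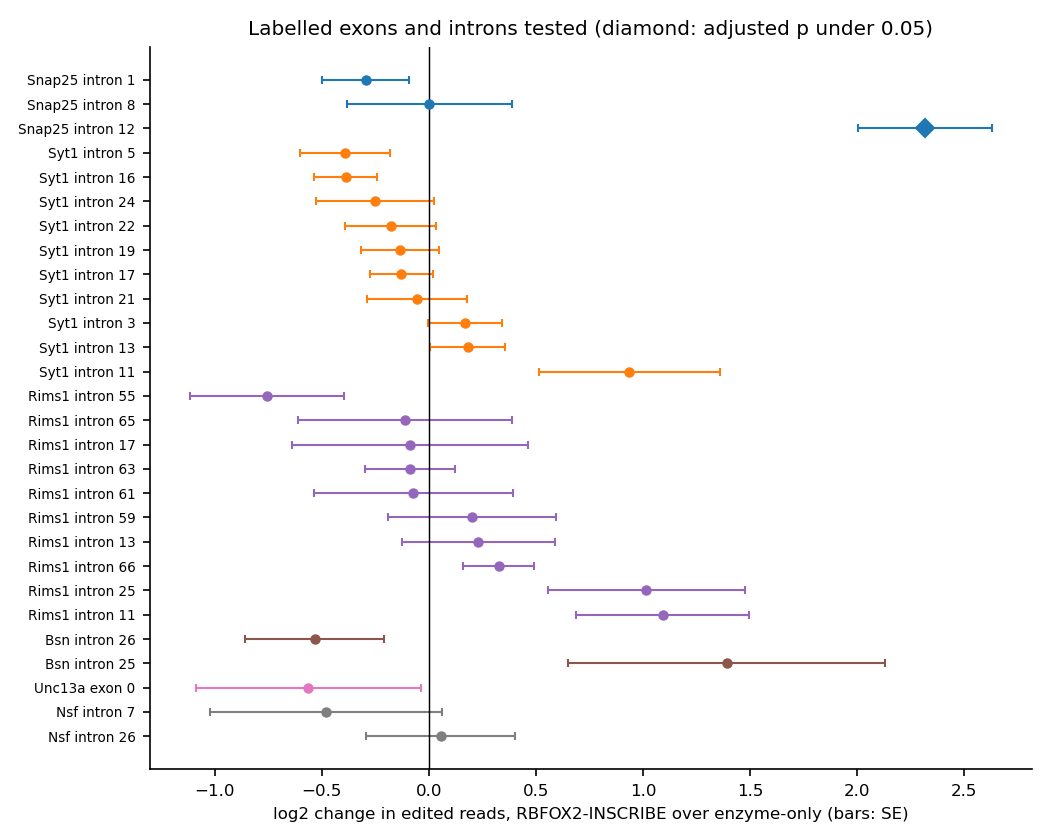
Log2 difference of edited reads, RBFOX2-INSCRIBE over enzyme-only, for the 28 labelled exons and introns tested, coloured by gene, with bars for the standard error and a diamond where the adjusted p was under 0.05. The Snap25 intron numbered 12 stands apart at 2.32, and the others lie on both sides of 0.

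Away from Snap25, 5 further introns had an unadjusted p under 0.05 and none an adjusted p under 0.05, which with the Snap25 intron makes 6 of the 28, beside 651 of all 4675, at an unadjusted p under 0.05. Intron 11 of Rims1 had 18, 24 and 15 edited reads in the RBFOX2-INSCRIBE libraries, 6, 11 and 5 in enzyme-only and 18, 8 and 7 in buffer-only (log2 1.09, adjusted p = 0.178), so buffer-only was also near the higher group. Intron 25 of Rims1 was at 1.02 (adjusted p = 0.312), intron 11 of Syt1 at 0.94 (adjusted p = 0.308), intron 55 of Rims1 at -0.75 (adjusted p = 0.337) and intron 16 of Syt1 at -0.39 (adjusted p = 0.191).

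The lists of confident edit clusters held 39 of the release genes among 5177 in RBFOX2-INSCRIBE, 23 among 4542 in enzyme-only and 9 among 2092 in buffer-only. They were intersections over the replicates and carry no spread. In RBFOX2-INSCRIBE, 18 lay in Syt1, 14 in Snap25 and 7 in Rims1, and Vamp1, Vamp2, Bsn, Unc13a and Nsf had none. Of the 14 in Snap25, 10 lay in the intron after the exon pair. Enzyme-only had 13 in Syt1, 6 in Snap25, 2 in Rims1 and 2 in Unc13a, and buffer-only 4 in Syt1, 1 in Snap25, 2 in Rims1 and 2 in Unc13a.

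The RBFOX2-INSCRIBE and enzyme-only lists shared 4, which is 10.3% of the first and 17.4% of the second, and RBFOX2-INSCRIBE and buffer-only shared 1, which is 2.56% and 11.1%. Over the whole lists, with an overlap of at least 1 nt on the same strand, the shares were 6.16% and 7.13% with enzyme-only, and 4.37% and 10.99% with buffer-only. After the authors' removal of background clusters, 38 remained in RBFOX2-INSCRIBE, and the cluster removed was in Syt1 at chr10:109002753-109002797. Clusters with a filtered site in each of the 3 libraries were 26, 15 and 7.

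UGCAUG lay in 7 of the 39 confident clusters of RBFOX2-INSCRIBE, the 7 printed above or their motif, with 3 in Syt1, 2 in Snap25 and 2 in Rims1. It lay in none of the 23 of enzyme-only or the 9 of buffer-only. Over whole lists it lay in 8.09%, 1.96% and 1.099% of confident clusters. Widened by 50 nt on each side, 10, 1 and 0 clusters of the release genes held it. The letters searched were TGCATG on the gene's strand. Longer clusters hold more letters, and among clusters of 45 nt, the median width, 3 of 25 held it against 4.09% of all 45-nt clusters in the RBFOX2-INSCRIBE list.

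Reads in the 7 motif clusters were few and lay mostly in RBFOX2-INSCRIBE. The Syt1 cluster chr10:108813654-108813728 had 4, 6 and 10 in RBFOX2-INSCRIBE, 3, 4 and 0 in enzyme-only and none in buffer-only, while the Rims1 3′ UTR cluster, chr1:22286912-22287001, had 5, 2 and 5, then 0, 2 and 0, then 1, 0 and 0. The Snap25 cluster chr2:136770805-136770879 had 1, 6 and 10, then 1, 1 and 0, then none. The other 4 held at most 3 reads in any library. The lists were drawn from these same reads, so the counts describe the clusters and test nothing.

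Around all UGCAUG, not only those in confident clusters, edits in the release genes were nearer the motif in RBFOX2-INSCRIBE by an amount within the spread. The share of the 8 genes' edited reads within 50 nt of UGCAUG was 7.80% ± 2.47 in RBFOX2-INSCRIBE, 4.77% ± 1.49 in enzyme-only and 4.57% ± 0.38 in buffer-only (exact permutation p = 0.2 for the first pair), and it was 7.05% and 4.67% in the first groups without the Snap25 intron (exact permutation p = 0.2). For Snap25 as a whole it was 11.7% ± 1.1 against 6.44% ± 0.93, with no overlap (exact permutation p = 0.1, the smallest possible). Of its 19, 18 and 21 such reads with the antibody, 12, 14 and 19 lay in the called intron. In enzyme-only 2, 2 and 1 of 6, 8 and 7 did. The Snap25 difference thus rests on the intron named for its rise and does not describe the rest of the gene. Over all filtered sites the share was 5.70% ± 0.31, 3.57% ± 0.08 and 3.34% ± 0.06. For Rims1 it was 10.9% ± 4.7 against 5.17% ± 2.35 and for Syt1 6.32% ± 1.73 against 4.29% ± 0.91 (exact permutation p = 0.2 for each).

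The base before the edited C separated the enzyme-treated libraries from buffer-only in the release genes. APOBEC1 prefers an A or U there, and these stood before 69.6% ± 3.6 of edited C in RBFOX2-INSCRIBE, 65.4% ± 2.0 in enzyme-only and 57.8% ± 1.3 in buffer-only. The first 2 overlapped (exact permutation p = 0.2), and every enzyme-only library was above every buffer-only library (exact permutation p = 0.1, the smallest possible).

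At single positions, 1 Syt1 site had edited reads in every enzyme-treated library, with or without the RBFOX2 antibody, and in no buffer-only library. Of sites with at least 20 edited reads over the libraries, with no filter on confidence, 4 lay in the release genes, and 1 was called for enzyme-only against buffer-only, where 2.27% of all 6256 were. None was called for RBFOX2-INSCRIBE against enzyme-only, where 1.31% of all were, and none of the 4 had an unadjusted p under 0.05 there, beside 534 of all.

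The called site is in the Syt1 3′ UTR, chr10:108497932 on the minus strand, the last sequence printed above. It had 9, 13 and 19 edited reads in the RBFOX2-INSCRIBE libraries, 22, 15 and 14 in enzyme-only and none in any buffer-only library. The 6 enzyme-treated libraries had 1705 to 2338 covering reads there, and the listed sites within 12 nt had a median cover of 2756, 2042 and 1529 in buffer-only, so the depth was similar. Edited reads were 0.385% to 1.07% of the covering reads where they occurred. Enzyme-only was at least 12.9-fold higher than buffer-only, with a floor of 3 counts over the buffer-only group (adjusted p = 2.98e-07). RBFOX2-INSCRIBE against enzyme-only gave log2 -0.45 ± 0.36 (adjusted p = 0.869). At this low edit fraction the confidence score passed 0.5 only in the third RBFOX2-INSCRIBE and the first enzyme-only library.

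**Figure D5:**
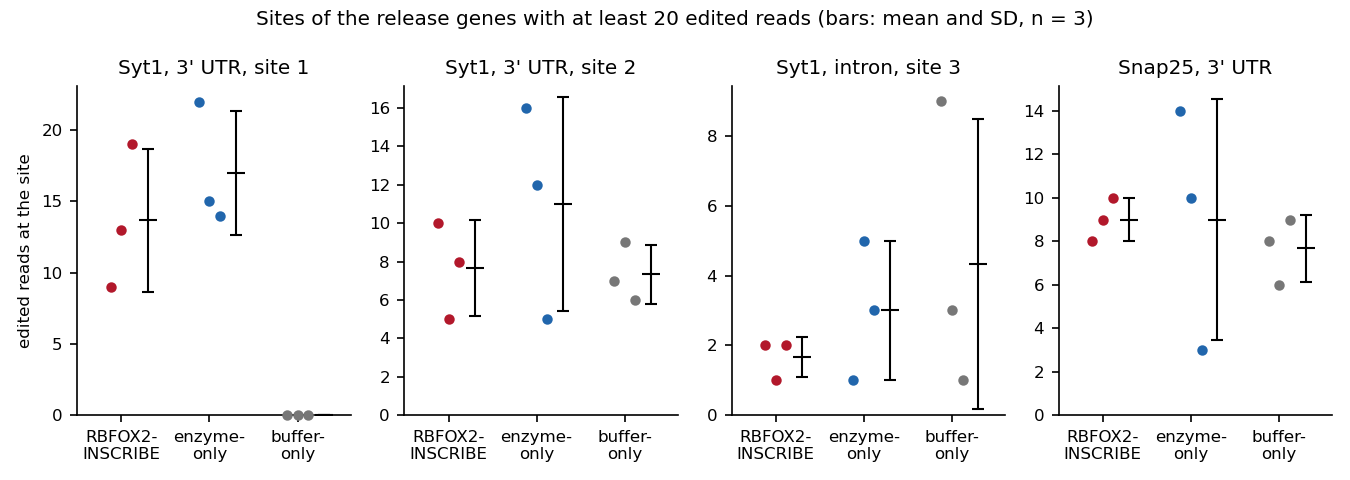
Edited reads in each of the 9 libraries at the 4 sites of the release genes with at least 20 edited reads, with 1 point per library, bars for mean and SD, and an own linear scale from 0 in each panel. The Syt1 3′ UTR site at left has 9 to 22 edited reads in the enzyme-treated libraries and 0 in the 3 buffer-only libraries, and the other sites have reads in all groups.

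The other 3 sites were edited in all groups. The Syt1 3′ UTR position chr10:108498023 had 10, 5 and 8, then 16, 12 and 5, then 7, 9 and 6 edited reads, and the Snap25 3′ UTR position chr2:136782265 had 8, 9 and 10, then 14, 10 and 3, then 8, 6 and 9. The Syt1 intron position chr10:109002774 had 2, 1 and 2, then 1, 5 and 3, then 9, 3 and 1, and lies in the cluster that the authors' background step removed. Each of the 3 thus carried edited reads in every buffer-only library, without the enzyme.

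Other genes of the release pathway were examined as 77 genes in 5 roles, of which 62 were tested. None was called for RBFOX2-INSCRIBE against enzyme-only, with 8 at an unadjusted p under 0.05, and 1 was called for enzyme-only against buffer-only, with 14. Over all 6631 genes tested, 1.03% and 0.573% were called, and 817 and 709 had an unadjusted p under 0.05. The median log2 differences were 0.13 and -0.12, beside -0.003 and -0.007 over all genes. By role, the median for RBFOX2-INSCRIBE over enzyme-only was 0.08 in 11 SNAREs and partners, 0.20 in 15 calcium sensors and relatives, 0.12 in 13 active zone genes, 0.07 in 15 vesicle protein genes and 0.15 in 8 endocytosis genes. For enzyme-only over buffer-only the medians were -0.09, -0.11, -0.15, 0.02 and -0.20.

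The gene called was Rab3c, a small GTPase of synaptic vesicles, with 89, 58 and 58 edited reads in the RBFOX2-INSCRIBE libraries, 47, 45 and 42 in enzyme-only and 16, 8 and 13 in buffer-only. It was higher in enzyme-only than in buffer-only by log2 1.43 ± 0.28 (adjusted p = 0.00146), and its exon numbered 0 by 2.16 (adjusted p = 0.0111). The scaffold relative Rims2 was at 0.46 for RBFOX2-INSCRIBE over enzyme-only (adjusted p = 0.0757), the active zone protein Erc2 at 0.32 (adjusted p = 0.122) and Snph, a syntaxin-binding protein, at 0.48 (adjusted p = 0.214). In the other roles the genes with the lowest p were Cadps (0.21, adjusted p = 0.477), Cadps2 (0.39, adjusted p = 0.576), Synpr (0.87, adjusted p = 0.260), Picalm (0.34, adjusted p = 0.601) and Snap91 (0.22, adjusted p = 0.661). Rab3c, also among these, was at 0.45 in that comparison (adjusted p = 0.346).

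For enzyme-only over buffer-only the values were, among other pathway genes, those of Sh3gl2 (-0.59, adjusted p = 0.0582), Dnm1 (-0.58, adjusted p = 0.147), Erc2 (-0.33, adjusted p = 0.174), Cadps (-0.32, adjusted p = 0.247), Rims4 (-0.89, adjusted p = 0.264), Sypl (1.61, adjusted p = 0.139), Syt4 (1.23, adjusted p = 0.333) and Snap47 (-0.66, adjusted p = 0.637). None of these passed.

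Single introns of the pathway genes Erc2 and Snph were called for RBFOX2-INSCRIBE over enzyme-only, where 2.07% of all 4675 labelled exons and introns were called. They are named because they were called, and give no rate for the pathway. Intron 37 of Erc2 had 52, 67 and 50 edited reads against 14, 10 and 11 in enzyme-only and 15, 13 and 16 in buffer-only (log2 1.99 ± 0.28, adjusted p = 2.18e-05). Intron 7 of Snph had 20, 25 and 27 against 3, 1 and 3 and 6, 2 and 2, and it passed the filter on low counts only through the RBFOX2-INSCRIBE libraries, so its call is a description. In both the RBFOX2-INSCRIBE libraries lay above all 6 control libraries.

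The genes whose levels over the 9 libraries were most like those of a release gene were found among the 866 genes whose edited reads averaged at least 50 per library, by Pearson's r of log2 levels, which share depth and composition across libraries. They were Map2 for Snap25 (r = 0.966), Ntm for Rims1 (r = 0.937), Atp9b for Syt1 (r = 0.871), Rptor for Nsf (r = 0.856) and Nwd2 for Unc13a (r = 0.774).

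The labelled tissue was checked with marker lists. All 8 general neuron markers had edited reads, and the sums of 8 striatal neuron markers ranged from 1590 to 2452 CPM with the RBFOX2 antibody, 999 to 1254 without it and 1003 to 1315 in the buffer-only libraries, with 1 of 4 tested called higher in RBFOX2-INSCRIBE. Oligodendrocyte markers ranged from 388 to 526, 602 to 639 and 517 to 618, and astrocyte markers from 1745 to 2343, 1782 to 2024 and 1399 to 1529. Of 3 choroid plexus markers, Ttr and Folr1 were at 0. The part of such differences between slices in the results was not tested.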

How the data were processed

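The 9 brain libraries were sequenced by the authors as single-end reads, trimmed with cutadapt, filtered against repeats and aligned with STAR 2.5.2 to mm10 per the labels and the study's methods. The labels name the same pair of library kits for every sample. The authors listed C-to-T sites with SAILOR, and the deposited site files hold counts of edited and covering reads, with a confidence score and the edit fraction of each site. The authors called clusters with FLARE (FDR 0.1, joined within 15 nt), deposited with a signal and a score per cluster, and intersected them over 3 replicates into confident lists, of which cleaned versions also leave out buffer-only clusters. The study's own term for confident clusters covers both steps, while here it means the first alone. Coordinates are 1-based, since the files give the base after a cluster's last base. Human cell line files were not used here.

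Sites with a confidence score above 0.5 and an edit fraction below 0.8 were kept. Edited reads were summed per gene over sites in clusters labelled with the gene that lay in its GENCODE M21 body on its strand. All 9 libraries entered 1 edgeR 4.0.16 quasi-likelihood fit (R 4.3.3, TMM factors, filterByExpr), with Benjamini-Hochberg adjustment over all features and calls at an adjusted p under 0.05, and RBFOX2-INSCRIBE was compared with enzyme-only and enzyme-only with buffer-only. Fits per labelled exon or intron, per merged cluster with at least 20 edited reads and per site with at least 20 edited reads were added after the data were seen. For single values of a library, exact permutation tests (two-sided) were used. Standard errors came from the fit and include the spread between libraries. Reads carried no molecular identifiers and are not independent molecules, and the floor of 3 counts covers counting error only.

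The members and gene lists were chosen with earlier results of these data known. All 8 members were named, with the merged cluster of each that had the most edited reads, each merged cluster called and each confident cluster with UGCAUG. Of the other pathway genes, those called and the 2 of lowest p per role and comparison were named, and for each member averaging at least 50 edited reads per library the gene of most like pattern. Results of 1 pathway gene that this rule names are not reported here. Labelled introns and single sites outside that rule were named after their values were seen. Tested on simulated data for RBFOX2-INSCRIBE against enzyme-only, the gene fit (6385 genes) recovered 53.1% of 2-fold and 89.9% of 4-fold differences with 2.78% of 144 calls false, and the exon and intron fit (4105) 37.2% and 86.8% with 3.48% of 115 calls false. Alternatives were DESeq2 1.42.0, other filters, an offset for covering reads, a replicate block and each library left out in turn.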

Additional observations from a re-analysis of the deposited data

How the results depend on the processing

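The rise of the Snap25 intron in RBFOX2-INSCRIBE kept its direction and its call in every alternative run, at log2 2.06 to 2.36, and at 2.20 to 2.49 with single libraries left out. Over 36 results and 386 alternatives, 342 kept direction and side of the threshold (counts within 1.5 times). The cause of the other outcomes was not tested. Depth limits all counts, since most sites rested on 1 edited read, and Vamp1 and Vamp2 fell short of the filter on low counts.

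For RBFOX2-INSCRIBE against enzyme-only, 68 genes were called, 38 with DESeq2's Wald test, 37 with the offset for covering reads and 28 to 70 with a library left out (28 without the first enzyme-only library, 32 without the second and 45 without the third RBFOX2-INSCRIBE library). For enzyme-only against buffer-only, 38 were called, 21 with the Wald test, 78 with every listed site, 24 with a cover of at least 20 reads, 18 with sites counted in place of reads, 16 with the offset, 60 with only the 2 groups in the fit and 12 to 30 with a library left out (12 without the first buffer-only library, 23 without the second and 22 without the second enzyme-only library).

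Of the release genes, 1 was called with every listed site in the first comparison. Their merged clusters called rose from 0 to 1 with every listed site in each comparison, to 2 with at least 20 edited reads in the first, and ranged from 0 to 1 with a library left out, the 1 being without the first RBFOX2-INSCRIBE library. Their exons and introns called for enzyme-only against buffer-only were 1 with at least 20 edited reads, 1 with every listed site and 0 to 1 with a library left out, each time the Syt1 exon numbered 0, called without the second or the third enzyme-only library. Confident enzyme-only clusters fell from 23 to 15 when a filtered site in each library was required. Widening by 50 nt gave 1 enzyme-only cluster with UGCAUG, and GCAUG lay in 1 buffer-only cluster.

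Signs turned only for values that did not pass. For RBFOX2-INSCRIBE against enzyme-only, Syt1 was at -0.0057 with sites counted, -0.13 with the offset and -0.039 to 0.077 with a library left out, Bsn at 0.12 with the offset and -0.18 to 0.023 with a library left out, Unc13a at 0.011 with a cover of at least 20 reads, and Nsf at -0.094 with the offset and -0.13 to 0.25 with a library left out. For enzyme-only against buffer-only, Syt1 was at 0.061 with the offset and Unc13a at -0.18 with a cover of at least 20 reads and -0.016 with the offset.

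With the replicate number as a block, 78 and 49 genes were called, the Snap25 intron was at 2.31, and no call of a release gene, exon, intron or site changed. Deviations of same-numbered libraries correlated at -0.042 to 0.10 (median 0.019) over 9 pairs. Libraries of different number correlated at -0.12 to 0.11 (median -0.018) over 18 pairs. As most sites rested on 1 edited read, these values cannot settle whether the numbers pair the samples.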
